A study of Xenopus tropicalis with 12 samples.

Results

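The dorsal marginal zone was compared with the animal cap of Xenopus tropicalis early gastrula embryos, in 4 of the 12 libraries of the series. The members were all gene models of the 2 animal cap and the 2 dorsal marginal zone libraries, paired by clutch. The transcription factors (TFs) among them were found by gene identifier in the study's list of TFs with expression values. Of 26550 gene models, 15727 had enough counts to be tested, and these included 915 of the 1197 TFs with a gene model. The TFs that differed were then divided into those that the other marginal zones shared and those of the dorsal side.

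The study dissected wild-type, untreated embryos at Nieuwkoop and Faber stage 10 to 10.25 by the sample labels, whereas its design text names a slightly later stage. Explants of 5 regions (the animal cap or AC, the dorsal, lateral and ventral marginal zones or DMZ, LMZ and VMZ, and the vegetal mass) were cut from embryos of the same clutch, with those of both sides joined for the lateral marginal zone. Whole embryos of that clutch were sequenced as well. The experiment was run with 2 clutches, so each region has 2 libraries, each from the pooled explants of a single clutch. A library is therefore an average over many embryos and over all cells of an explant, in which fewer cells of a type and less RNA per cell cannot be told apart.

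The animal cap lies around the upper pole of the blastula and gives rise to epidermis and, when instructed, to neural tissue. The marginal zone is the equatorial ring in which vegetal Nodal signals induce mesoderm and endoderm. Its dorsal sector holds Spemann's organizer, which is set up by maternal Wnt/beta-catenin together with Nodal signaling and which secretes BMP and Wnt antagonists. Ventral and lateral sectors are exposed to BMP signaling, whose targets include the ventx, msx and id genes.

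Expected counts summed to between 14634582 and 29166548 in the 10 region libraries, with 27126407 and 15030188 in the AC and 29166548 and 14634582 in the DMZ of clutches 1 and 2. Each marker group was highest in the region it was chosen for. The markers belong to gene lists chosen with earlier results of these data known, so this is no independent check. The summed level of the AC markers foxi1, tfap2a, grhl3 and klf17 was 1726 and 2132 TPM (a level corrected for transcript length and library size) in the AC and 193 and 191 TPM in the DMZ, where a pair of values gives clutch 1 and then clutch 2, here and below. That of gsc, otx2, lhx1, not and foxa4 was 193 and 130 TPM (129.9 before rounding) in the AC and 2328 and 2551 TPM in the DMZ. Single genes weighed heavily in it. In the DMZ foxa4 gave 1188 and 1193 TPM, and it had 1098 and 1071 TPM in the vegetal mass. In the AC the gene not gave 144 and 75.0 TPM. Markers of the neighboring regions were also present. The sum of 8 vegetal markers (sox17a, sox17b.1, sox17b.2, foxa1, gata4, gata5, gata6 and sox7) was 732 and 585 TPM in the DMZ, 428 and 261 TPM in the LMZ and 614 and 426 TPM in the VMZ, and 3653 and 4737 TPM in the vegetal mass. The AC held 49.7 and 21.2 TPM of them, and none of the 8 was at 0 in any of these libraries. Their part in the differences described here was not tested.

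Far more TFs were higher in the DMZ than in the AC than the reverse. Of the 915 TFs tested, 94 were higher (10.3%) and 38 were lower (4.15%) in the DMZ at an adjusted p under 0.05, against 3.37% higher and 1.58% lower (4.95% in all) among the 15727 genes tested, or 530 and 248 genes. The p-values are from edgeR's quasi-likelihood test on expected counts with the clutch as a block, adjusted by Benjamini and Hochberg over all genes tested, and a fold change is that of the DMZ over the AC unless another pair is named. A ratio of mean TPM of at least 2 with at least 1 TPM in the higher region was met by 82 of the 94 TFs and by 31 of the 38, against 2.66% and 1.06% of all genes. All 132 TFs had the same direction of the TPM difference in both clutches. They were called on these same libraries, which favors this, so it is no separate check. The size of these counts depended on the block. Without it, when the difference between clutches counted as replicate error, 192 genes were higher and 21 lower (1.22% and 0.134%), with 49 TFs higher and 10 lower, and all 59 of these TFs were among the 132. The block rests on 4 residual degrees of freedom over 10 libraries. On simulated counts with a clutch shift common to all regions and 200 genes changed 4-fold, it made more false calls than its threshold allows. There 22 of 201 calls were false and 179 of the 200 genes were recovered. Without the block 41 were recovered with no false call, so a call lost without it can also be a true difference missed. When each of the 4 libraries compared was left out in turn, the count of TFs that were lower fell to between 21 and 27 and that of TFs that were higher to between 69 and 89, the lowest being 21 without AC replicate 1 and 69 without AC replicate 2. In every one of these 4 fits 80 of the 132 TFs were called again, and none changed sign.

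**Figure D1:**
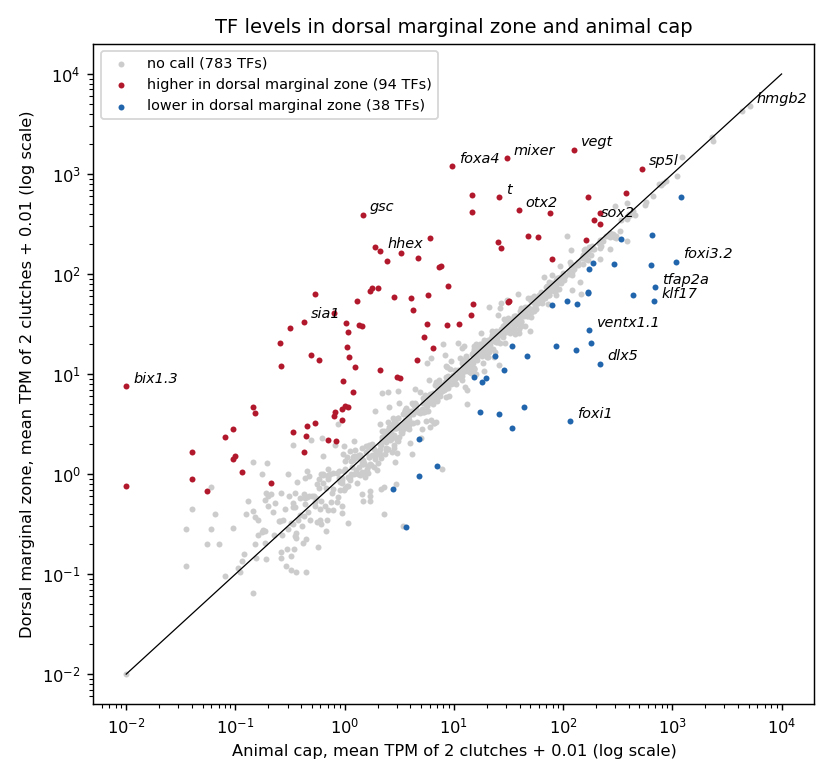
Mean TPM of each of the 915 TFs tested in the animal cap (x axis) and the dorsal marginal zone (y axis), each a mean of 2 clutches plus 0.01 on log scales, with the line of equal levels. The 94 TFs higher in the dorsal marginal zone (red) spread over a wide range of levels and lie above the line. Some lie far above it, with gsc at a mean of 1.45 against 389.9 TPM, and others close to it, with etv1 at 161.5 against 217.8 TPM. The 38 lower ones (blue) include several of the most abundant animal cap TFs, such as foxi3.2.

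By DNA-binding domain, 30 of 130 homeobox TFs were higher and 6 lower (23.1% and 4.62%, against 10.3% and 4.15% of all TFs tested). Of 38 forkhead TFs 10 were higher and 4 lower (26.3% and 10.5%). Of 71 TFs with a helix-loop-helix domain, basic or not, 13 were higher and 4 lower (18.3% and 5.63%). T-box TFs counted 5 higher of 11 and TFs with a GATA-type domain 4 of 11, with none lower in either family. The latter were counted by domain and are not all GATA factors, and the 4 higher ones were gata3, gata4, gata5 and gata6. Of 41 HMG-box TFs 4 were higher and none lower, of 13 Ets TFs 3 were higher and 1 lower, and of 50 bZIP TFs 3 were higher and 3 lower. Of 236 TFs with zinc fingers of the C2H2 or H2C2 type and no other domain, 16 were higher and 8 lower (6.78% and 3.39%), and none of the 33 nuclear receptors was higher while 2 were lower. The families were not tested against each other.

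The 94 TFs that were higher in the DMZ were divided by the LMZ and VMZ of the same clutches. These contrasts share the AC or the DMZ libraries, so they are not independent of each other. A TF was placed on the dorsal side where its level also exceeded that of the VMZ at an adjusted p under 0.05. This held for 161 genes (1.02% of all genes tested) and for 4.15% of all TFs. It was called shared where the LMZ and the VMZ also exceeded the AC and the DMZ did not exceed the ventral. Among all genes tested 2.31% were called higher in the LMZ and 2.47% in the VMZ than in the AC. By this rule 25 TFs were of the dorsal side, 50 were shared and 19 could not be placed. Of the 25, 14 had no call for the LMZ or the VMZ over the AC (dorsal alone), and 11 had one for at least the LMZ (dorsal-graded). Against the LMZ, 11 of the 25 were higher in the DMZ, where 1.31% of all TFs and 0.394% of all genes were. Among these were nkx2-2, gsc, sia1, dmbx1, rax, etv2, hhex, nkx2-3, sycp2 and gata6. Requiring this second difference as well left 6 TFs as dorsal alone and 5 as dorsal-graded. The classes depended strongly on the block, since without it 2 TFs were dorsal alone, 1 was dorsal-graded and 27 were shared. They also depended on single libraries. Without DMZ replicate 2, 7 TFs were dorsal alone and 7 dorsal-graded, and 33 were shared without AC replicate 1 and 31 without AC replicate 2. The name dorsal alone rests on tests that missed the threshold, and it does not show that the gene was absent elsewhere. The LMZ had a positive fitted difference from the AC for 12 of the 14, above 1 on the log2 scale for 8 of them, and the VMZ for 8 of the 14.

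**Figure D2:**
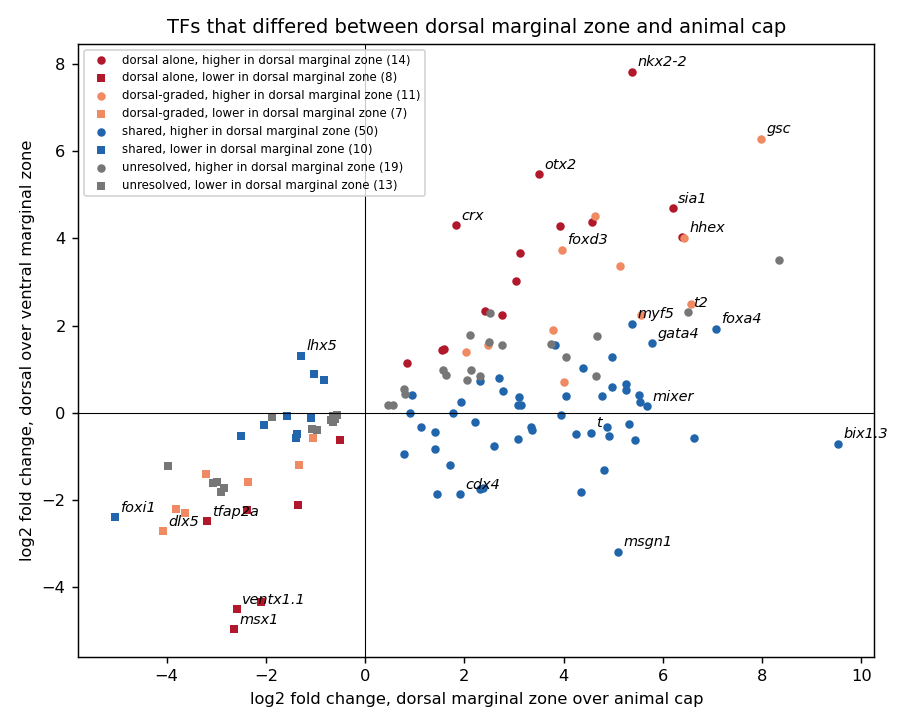
Difference of the dorsal marginal zone from the animal cap (x axis) and from the ventral marginal zone (y axis), both as log2 fold changes, for the 132 TFs that differed between dorsal marginal zone and animal cap, with circles for those that were higher, squares for those that were lower and colors for the classes. Both axes use the dorsal libraries. TFs of the dorsal side such as gsc and otx2 lie in the upper right, the 50 shared TFs scatter around 0 on the y axis (median -0.14), and msx1 and ventx1.1 lie lowest on the left.

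Of 13 organizer TFs, 10 were higher in the DMZ and none was lower. The background for this and each later list is 10.3% of all TFs tested higher and 4.15% lower (3.37% and 1.58% of all genes). The median log2 fold change of the organizer list was 4.58, against 0.00 over all genes tested and -0.02 over all TFs. This list and those below were chosen with earlier results of these data known. Without the block 8 of the 13 were higher. The gene gsc (Xetrov90021259) encodes the homeobox repressor by which the organizer was first recognized in molecular terms. Its level was 309.6 and 470.2 TPM in the DMZ and 2.03 and 0.87 TPM in the AC (log2 fold change 7.97, standard error 0.55, adjusted p = 0.000268). The LMZ had 41.0 and 28.3 TPM, the ventral 6.48 and 3.55 TPM and the vegetal mass 159.5 and 262 TPM. The dorsal libraries were thus above those of every other region, and the LMZ came next among the marginal zones. The homeobox gene otx2 (Xetrov90021558), required for head development, had 410.1 and 453 TPM in the DMZ and 28.4 and 49.7 TPM in the AC (log2 fold change 3.50, standard error 0.44, adjusted p = 0.00489). In the VMZ otx2 was at 14.7 and 5.80 TPM, below both AC libraries, and it stood in the lateral at 77.1 and 56.1 TPM. The LIM homeobox gene lhx1 (Xetrov90004734), another gene of head organizer function, had 169 and 202 TPM in the DMZ and 3.25 and 0.55 TPM in the AC (log2 fold change 6.57, standard error 0.54, adjusted p = 0.000625). It was graded around the ring, with 69.4 and 59.4 TPM in the LMZ and 42.8 and 28.4 TPM in the VMZ. The difference of lhx1 from the VMZ was near the threshold (adjusted p = 0.0474) and was lost without DMZ replicate 1 (adjusted p = 0.0584) or replicate 2 (adjusted p = 0.283). A fit on the 4 libraries of DMZ and AC alone leaves 1 residual degree of freedom, here and below. In it gsc was still called, while lhx1 was not (adjusted p = 0.394). With all region libraries but no filter on low counts, otx2 missed the threshold (adjusted p = 0.0553).

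Siamois, encoded by sia1 (Xetrov90028980), is a direct target of maternal Wnt/beta-catenin signaling and activates organizer genes. Its level was 30.4 and 36.0 TPM in the DMZ and 0.83 and 0 TPM in the AC (log2 fold change 6.20, standard error 0.76, adjusted p = 0.00271). The LMZ had 4.66 and 0.89 TPM and the vegetal mass 59.5 and 39.4 TPM, so that the dorsal and vegetal libraries were high and all others low. Without the block the adjusted p of sia1 was 0.0639. The homeobox repressor hhex (Xetrov90017618), a gene of the anterior endoderm, had 146 and 192 TPM in the DMZ, 2.90 and 1.31 TPM in the AC and 394 and 238 TPM in the vegetal mass (log2 fold change 6.42, standard error 0.45, adjusted p = 0.000256, and 0.0591 on the 4 libraries alone). The paired-type homeobox gene dmbx1 (Xetrov90011822), known from the embryonic brain, had 14.8 and 12.9 TPM in the DMZ against 0.62 and 0.53 TPM in the AC (log2 fold change 4.64, standard error 0.40, adjusted p = 0.000103). Its ventral level of 0.61 and 0.7 TPM was at that of the AC. In the vegetal mass dmbx1 reached 47.7 and 21.3 TPM, above the DMZ (log2 fold change -1.10 of dorsal over vegetal, adjusted p = 0.0108).

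The forkhead genes of the organizer list differed from each other in their distribution. The closely related genes foxd4l1.1 and foxd4l1.2 encode repressors of early neural plate, and reads they share were divided between them by estimate. The level of foxd4l1.2 was 20.1 and 32.5 TPM in the DMZ and 1.84 and 0.28 TPM in the AC (log2 fold change 4.58, standard error 0.74, adjusted p = 0.012). That of foxd4l1.1 was 216 and 266 TPM against 50.8 and 43.8 TPM (log2 fold change 2.42, standard error 0.34, adjusted p = 0.00704). Both were lowest in the vegetal mass, at 0.32 and 0.12 TPM and at 11.4 and 7.81 TPM. Their calls were less steady than those of gsc or hhex, since without AC replicate 2 the adjusted p was 0.0679 for foxd4l1.2 and 0.0616 for foxd4l1.1, the latter also losing its call without AC replicate 1 (adjusted p = 0.0792). Without DMZ replicate 2 the excess over the VMZ was lost for both (adjusted p = 0.0883 and 0.0535), and without the block that of foxd4l1.2 against the AC had an adjusted p of 0.125. In contrast, foxa4 (Xetrov90010996), a gene of axial mesoderm and floor plate, was the most abundant organizer TF and fell among the shared TFs. Its level was 1188 and 1193 TPM in the DMZ, 588 and 401 TPM in the LMZ, 449 and 246 TPM in the VMZ, 1098 and 1071 TPM in the vegetal mass and 15.4 and 3.71 TPM in the AC (log2 fold change 7.07, standard error 0.52, adjusted p = 0.000394). Both dorsal values of foxa4 were above both ventral values, yet this difference did not pass the threshold (log2 fold change 1.93, standard error 0.40, adjusted p = 0.106), and the call of foxa4 against the AC was lost on the 4 libraries alone (adjusted p = 0.364). Its relative foxa2 had 3.04 and 4.64 TPM and 0.82 and 0.75 TPM (log2 fold change 2.32, standard error 0.39, adjusted p = 0.00722) and could not be placed, and its call was lost without AC replicate 1 or 2 (adjusted p = 0.0844 and 0.0515).

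The remaining organizer TFs had no call. The homeobox gene not had 251 and 231 TPM in the DMZ and 144 and 75.0 TPM in the AC, where the libraries did not overlap but the adjusted p was 0.0515. Levels of sia2, at 1.95 and 0.67 TPM against 0.27 and 0 TPM, were low (adjusted p = 0.248, and 0.0378 with limma on log2 TPM with a pseudocount of 1). For hesx1, a homeobox repressor of the forebrain, the AC had 5.49 and 9.32 TPM and the DMZ 1.94 and 10.2 TPM, so that the clutches differed in direction (adjusted p = 0.76).

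Among the TFs of dorsal alone outside the organizer list were several homeobox genes best known from the neural plate and foregut. The homeobox gene crx (Xetrov90021015), a relative of otx2, was the most abundant of them, at 561 and 622 TPM in the DMZ, 153 and 186 TPM in the AC and 47.4 and 17.9 TPM in the VMZ. The call of crx against the AC (log2 fold change 1.83, standard error 0.37, adjusted p = 0.0406) was lost without the block (adjusted p = 0.107) and without each of the 4 libraries (adjusted p from 0.0649 without DMZ replicate 1 to 0.251 without DMZ replicate 2). Its dorsal excess over the VMZ was kept in all 4 (adjusted p = 0.00505 with all libraries). Here the VMZ lay below the AC (log2 fold change -2.47, adjusted p = 0.017). The Ets gene etv2 (Xetrov90027763), required for blood vessel and blood progenitors, had 12.6 and 27.9 TPM in the DMZ, and 121 and 146 counts were found there against 3 in both AC libraries together. The ratio of pooled counts was 85.7 (95% exact interval from 29.0 to 418, counting error only), with an adjusted p of 0.000352. In the LMZ etv2 had 1.36 and 3.2 TPM, and in the vegetal mass 15.0 and 11.2 TPM. The eye field gene rax (Xetrov90003714) was low everywhere, at 1.6 and 1.18 TPM in the DMZ against 0.12 and 0.05 TPM in the AC (log2 fold change 3.92, standard error 0.57, adjusted p = 0.00274).

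Genes of the Nkx class were found at low levels. The homeobox gene nkx2-2 (Xetrov90013298), a gene of the ventral neural tube and pancreas, had 1.76 and 1.52 TPM in the DMZ, 7.71 and 4.72 TPM in the vegetal mass and at most 0.06 TPM in each of the other 6 region libraries. Its pooled counts were 50 in the DMZ and 1 in the AC, a ratio of 48.1 (95% exact interval from 8.25 to 1938). The adjusted p was 0.00441, and 0.0747 without the block. The pharyngeal and heart gene nkx2-3 had 3.34 and 1.94 TPM against 0.38 and 0.27 TPM (log2 fold change 3.04, standard error 0.34, adjusted p = 0.000524). For nkx6-2, a gene of the ventral neural tube, the levels were 3.32 and 2.75 TPM against 0.64 and 0.25 TPM (log2 fold change 2.75, standard error 0.38, adjusted p = 0.00186). All 3 were lower in the DMZ than in the vegetal mass. Their log2 fold changes of dorsal over vegetal were -1.74, -1.84 and -1.24. The opposite held for gli1.1, a zinc-finger effector of Hedgehog signaling, and sox2, an HMG-box gene of neural progenitors. The level of gli1.1 was 6.25 and 10.8 TPM in the DMZ, 1.15 and 0.76 TPM in the AC and 0.48 and 0.81 TPM in the vegetal mass (log2 fold change 3.13, standard error 0.53, adjusted p = 0.0134, and 0.103 without the block). Its call was lost without AC replicate 1, AC replicate 2 or DMZ replicate 2 (adjusted p = 0.0794, 0.139 and 0.068). That of sox2 was 256 and 432 TPM in the DMZ, 179 and 204 TPM in the AC and 7.63 and 9.19 TPM in the vegetal mass. With a log2 fold change of 0.84 (adjusted p = 0.011), sox2 showed the smallest difference from the AC of the 25, and its adjusted p was 1 without the block, 0.133 without AC replicate 2 and 0.102 without DMZ replicate 2. Of the other members, one was the Notch target hes1, with a log2 fold change of 1.59 (adjusted p = 0.00918, 0.188 without the block and 0.0925 without AC replicate 2). Beside it stood sycp2, named for a protein of the synaptonemal complex, with a log2 fold change of 1.54 (adjusted p = 0.000452, and 0.39 without the block). Of the 14 TFs of dorsal alone, 8 kept their call against the AC when each library was left out in turn, and 6 kept it without the block. Without DMZ replicate 2 the excess over the VMZ was lost for hes1, nkx6-2, gli1.1 and sox2 (adjusted p = 0.191, 0.103, 0.1 and 0.0535).

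**Figure D3:**
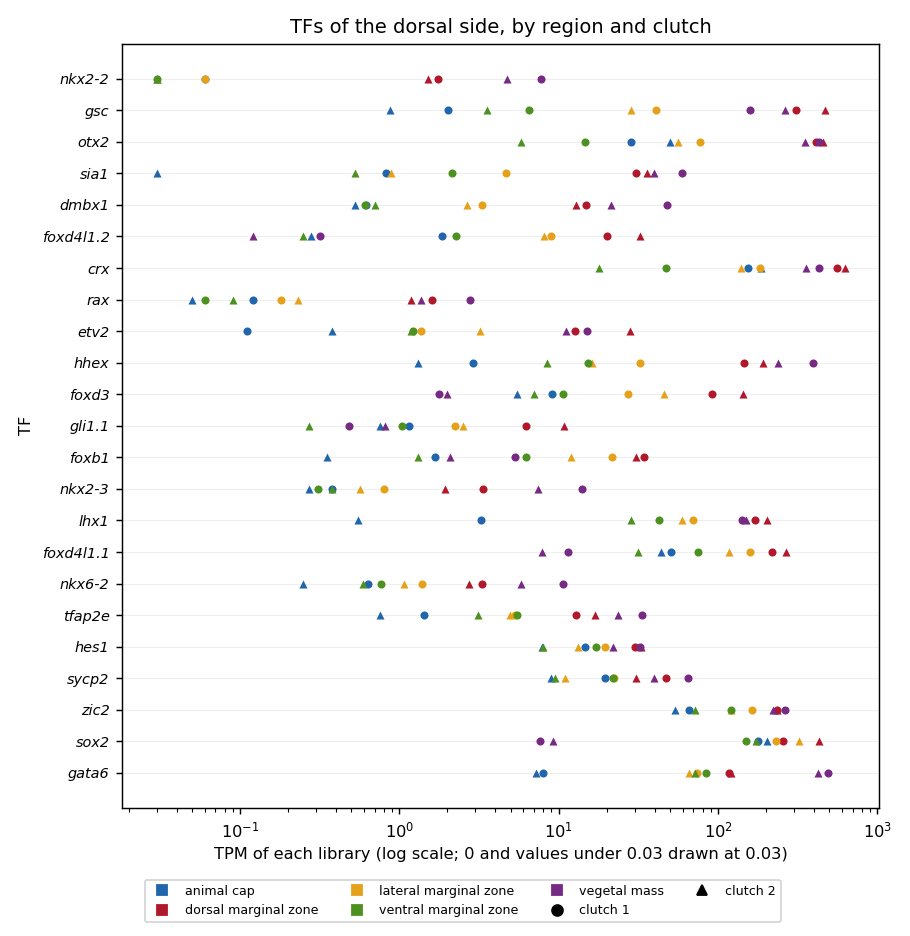
TPM of each of the 10 region libraries (log scale) for 23 of the 25 TFs of the dorsal side, ordered by their log2 fold change of dorsal over ventral marginal zone, with colors for regions and circles and triangles for clutches 1 and 2. The red points of the dorsal marginal zone lie right of the blue animal cap points for each TF plotted. The purple points of the vegetal mass are at or beyond the red ones for genes such as hhex and gata6 and far to the left for foxd3 and sox2.

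The 11 dorsal-graded TFs had larger and steadier differences, and all 11 kept their call against the AC with each library left out. Besides gsc, lhx1, hhex and dmbx1 they included foxb1, gata6, foxd3, tfap2e and zic2. Values of the forkhead gene foxd3, which acts in neural crest and early mesoderm, were 90.9 and 143 TPM in the DMZ, 27.2 and 45.8 TPM in the LMZ, 10.6 and 6.98 TPM in the VMZ and 9.02 and 5.50 TPM in the AC (log2 fold change 3.96, standard error 0.40, adjusted p = 0.00092, and 0.0853 on the 4 libraries alone). Its level fell from dorsal through lateral to ventral. The forkhead gene foxb1, of the neural tube, had 34.1 and 30.4 TPM in the DMZ and 1.68 and 0.35 TPM in the AC (log2 fold change 5.13, standard error 0.55, adjusted p = 0.00155, and 0.0554 without the block). The endodermal zinc-finger gene gata6 had 118 and 121 TPM in the DMZ, 73.5 and 66.0 TPM in the LMZ, 83.8 and 71.3 TPM in the VMZ and 7.95 and 7.17 TPM in the AC (log2 fold change 4.01, standard error 0.12, adjusted p = 7.07e-07). This was the smallest adjusted p among the 25, while the dorsal excess of gata6 over the VMZ was only 0.70 on the log2 scale and was lost without DMZ replicate 2 (adjusted p = 0.135). The zinc-finger gene zic2, which promotes neural fate, rose less, by 2.03, from an AC level of 65.5 and 53.3 TPM. Its dorsal excess over the VMZ was 1.39 (adjusted p = 0.00334). That of the AP-2 gene tfap2e was lost without DMZ replicate 2 (adjusted p = 0.0697).

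The vegetal mass divided the TFs of the dorsal side. For 13 of the 25 the highest regional mean was in the DMZ and for 12 in the vegetal mass. The DMZ exceeded the vegetal mass for foxd4l1.1, foxd4l1.2, gli1.1, foxb1, foxd3 and sox2, and lay below it for 6 others, dmbx1, nkx2-2, gata6, nkx6-2 and nkx2-3 among them. Among all genes these directions were called for 16.4% and 16.9%, and among all TFs for 16.9% and 25%, so that 6 of 25 in either direction is near the background of TFs. Genes called above the vegetal mass included forkhead, Gli and Sox genes of the neural plate, with foxd3 at 1.78 and 1.99 TPM and foxb1 at 5.31 and 2.08 TPM in the vegetal mass.

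The shared TFs were the most numerous class, with 50 of the 94, although fewer were placed there with single libraries left out (31 of 69 without AC replicate 2). They had a median log2 fold change of 3.89 over the AC (range 0.78 to 9.53) and of -0.14 over the VMZ. Of these, 37 kept their call against the AC with each library left out and 29 kept it without the block. Their highest regional mean was in the vegetal mass for 28, in the VMZ for 9, in the DMZ for 7 and in the lateral for 6. The DMZ lay below the vegetal mass for 23 of them (25% of all TFs and 16.9% of all genes) and above it for 11 (16.9% of all TFs and 16.4% of all genes).

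T-box TFs specify mesoderm and endoderm, and all 4 of the list (t, t2, eomes and vegt) were higher in the DMZ (median log2 fold change 5.04, also 4 of 4 without the block). The level of t (Xetrov90013794), or brachyury, the general mesoderm gene, was 551 and 617 TPM in the DMZ, 828 and 758 TPM in the LMZ and 893 and 814 TPM in the VMZ, 173 and 180.3 TPM in the vegetal mass and 36.0 and 15.8 TPM in the AC (log2 fold change 4.55, standard error 0.34, adjusted p = 0.000324). That of eomes (Xetrov90016435), an early regulator of mesoderm and endoderm, was 674 and 554 TPM, 491 and 360.5 TPM and 569 and 421 TPM in the marginal zones in the same order and 22.8 and 6.57 TPM in the AC (log2 fold change 5.52, standard error 0.38, adjusted p = 0.000253). The maternal endoderm determinant vegt (Xetrov90002928) had 1972 and 1517 TPM in the DMZ and 198 and 53.7 TPM in the AC (log2 fold change 3.94, standard error 0.49, adjusted p = 0.00531). For these 3 genes the difference between DMZ and VMZ had an adjusted p from 0.678 to 0.978. On the 4 libraries alone their differences from the AC were as large but not called (adjusted p = 0.354, 0.352 and 0.435), and vegt also missed the threshold with no filter on low counts (adjusted p = 0.0571). The related gene t2 (Xetrov90013793) was higher dorsally in its estimates, at 13.8 and 44.1 TPM in the DMZ, 14.0 and 16.4 TPM in the LMZ and 7.52 and 3.51 TPM in the VMZ against 0.28 and 0.33 TPM in the AC (log2 fold change 6.5, standard error 0.85, adjusted p = 0.00512). Its dorsal level differed between clutches, it could not be placed in a class (dorsal over ventral 2.30, adjusted p = 0.196), and its call was lost without AC replicate 1 or 2 (adjusted p = 0.0831 and 0.0681).

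The Mix and Bix homeobox genes are Nodal and T-box targets that direct mesendoderm. All 9 that could be tested were higher in the DMZ, all 9 were shared, and 7 were higher without the block. Their median log2 fold change was 5.44, or 4.91 with bix1.3 at its lower bound. The highest level was that of mixer (Xetrov90012972), at 1747 and 1128 TPM in the DMZ, 1281 and 738 TPM in the LMZ and 1678 and 1049 TPM in the VMZ, 4494 and 4345 TPM in the vegetal mass and 47.8 and 13.0 TPM in the AC (log2 fold change 5.68, standard error 0.41, adjusted p = 0.000358). Expression of mix1 (Xetrov90012973) was 497 and 346 TPM in the DMZ and 22.8 and 6.20 TPM in the AC (log2 fold change 4.88, standard error 0.51, adjusted p = 0.00243). No read of bix1.3 was counted in either AC, and with 157 and 29.5 counts in the DMZ it was at least 23.9-fold higher there (against a floor of 3 counts per library). The dorsal levels of bix1.1, bix1.2, bix1.3, bix1.5 and bix1.6 were lower in clutch 2 than in clutch 1, as 199.8 and 91.5 TPM for bix1.1 and 88.3 and 38.0 TPM for bix1.6 show, and these copies are so alike that reads may have been divided among them. Levels of sebox were 164 and 164 TPM, 143 and 144 TPM and 154 and 137 TPM from dorsal to ventral and 5.31 and 1.25 TPM in the AC (log2 fold change 5.53, standard error 0.43, adjusted p = 0.000358), close to even around the ring. On the 4 libraries alone mixer, mix1 and sebox were not called (adjusted p = 0.259, 0.241 and 0.122). For mxtx1 the dorsal level was 80.2 and 7.40 TPM and the AC level 7.63 and 0.71 TPM (log2 fold change 3.35, standard error 0.55, adjusted p = 0.0149). Both regions had far less of it in clutch 2, and the adjusted p of mxtx1 was 1 without the block, 0.277 without AC replicate 1, 0.0744 without AC replicate 2 and 0.162 without DMZ replicate 1. The untested gene bix1.4 was listed at 0 in the DMZ and at 0.47 and 1.17 TPM in the AC.

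**Figure D4:**
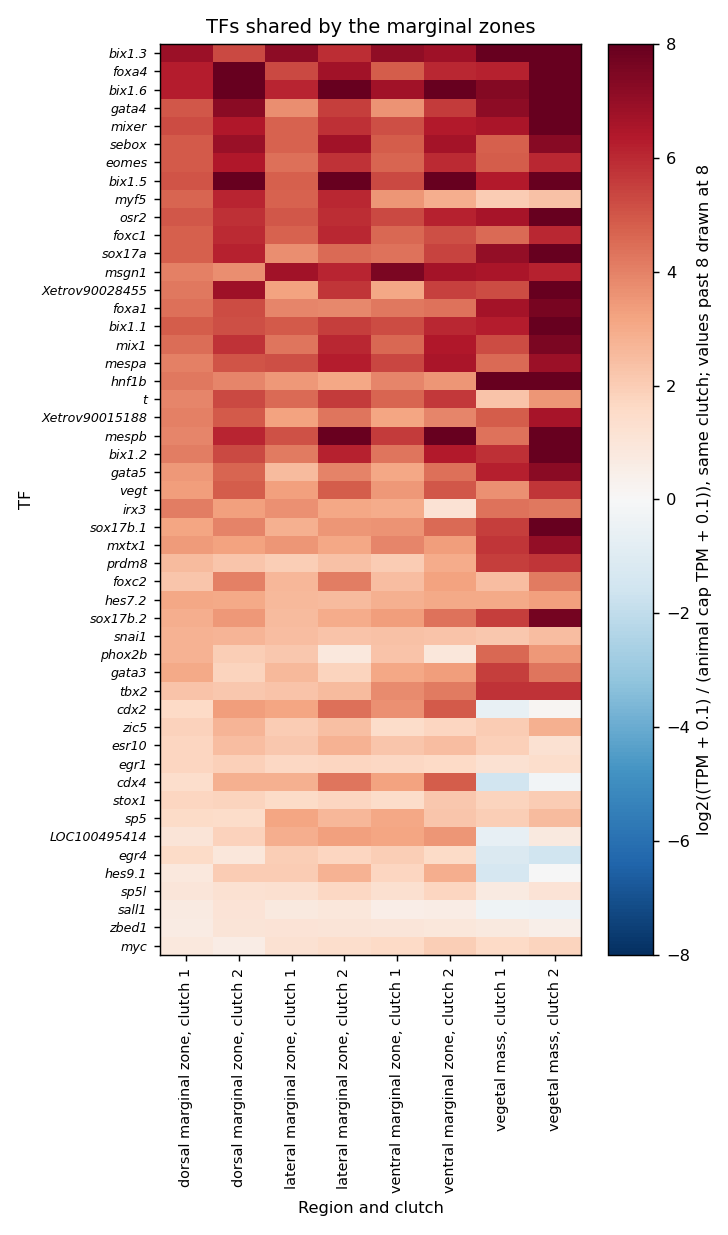
Log2 ratio of TPM plus 0.1 over the animal cap of the same clutch, for the 50 shared TFs (rows, by their log2 fold change in the dorsal marginal zone) in the dorsal, lateral and ventral marginal zones and the vegetal mass of clutches 1 and 2 (columns), with values past 8 drawn as 8. The 3 marginal zones are red in every row. The vegetal mass is darker for the endodermal genes and pale or blue for cdx2, cdx4, egr4 and sall1, while msgn1 is palest in the dorsal columns.

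Endoderm TFs were higher in the DMZ for 8 of 9, with a median log2 fold change of 4.05 (7 of 9 without the block). For all 9 the DMZ lay below the vegetal mass, against 25% of all TFs and 16.9% of all genes tested. The gene sox17a (Xetrov90016800), an HMG-box regulator of endoderm, had 260.2 and 194 TPM in the DMZ, 9.52 and 2.61 TPM in the AC and 1233 and 1470.1 TPM in the vegetal mass (log2 fold change 5.26, standard error 0.44, adjusted p = 0.000677). The zinc-finger gene gata4 (Xetrov90026121), of endoderm and heart, had 131 and 141 TPM in the DMZ, 4.04 and 0.85 TPM in the AC and 600.4 and 671 TPM in the vegetal mass (log2 fold change 5.78, standard error 0.48, adjusted p = 0.000665). The forkhead gene foxa1 of endoderm had 16.9 and 13.8 TPM against 0.7 and 0.27 TPM (log2 fold change 4.98, standard error 0.36, adjusted p = 5.84e-05). On the 4 libraries alone sox17a and gata4 were not called (adjusted p = 0.109 and 0.395). Calls of sox17b.1 and sox17b.2, near-identical copies, depended on single libraries. That of sox17b.1 was lost without each of the 4 (adjusted p from 0.0679 without DMZ replicate 2 to 0.134 without AC replicate 2) and that of sox17b.2 without AC replicate 1, AC replicate 2 or DMZ replicate 1 (adjusted p = 0.0646, 0.0945 and 0.073). The member without a call was sox7, at 7.41 and 2.95 TPM against 3.86 and 2.44 TPM.

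Of the paraxial and early mesoderm list, 9 of 11 were higher in the DMZ (median log2 fold change 3.44), and 5 of 11 without the block. The myogenic gene myf5 (Xetrov90007873) had 50.1 and 56.4 TPM in the DMZ, 51.9 and 53.5 TPM in the LMZ and 23.2 and 6.06 TPM in the VMZ and 1.88 and 0.72 TPM in the AC (log2 fold change 5.38, standard error 0.65, adjusted p = 0.00362). Its dorsal and lateral libraries were alike and above the ventral ones, although dorsal over ventral gave an adjusted p of 0.166. The opposite order was seen for msgn1 (Xetrov90015181), a gene of presomitic mesoderm, with 1.54 and 3.11 TPM in the DMZ, 10.3 and 16.3 TPM in the LMZ and 18.1 and 24.0 TPM in the VMZ. A single read of msgn1 was counted in the AC libraries and 42 in the DMZ, a ratio of 40.4 (95% exact interval from 6.87 to 1634, adjusted p = 0.00122, and 0.111 without the block). The mesp genes mespa and mespb, of somite segmentation, followed msgn1 in their estimates, with log2 fold changes of dorsal over ventral of -1.30 and -1.82 that did not pass the threshold (adjusted p = 0.16 and 0.149). Expression of snai1, a repressor of epithelial genes, was 214 and 149 TPM in the DMZ and 31.3 and 22.6 TPM in the AC (log2 fold change 2.78, standard error 0.13, adjusted p = 3.35e-06). The kidney and intermediate mesoderm gene osr2 (Xetrov90017042) had 80.7 and 64.5 TPM against 2.49 and 1.03 TPM (log2 fold change 5.32, standard error 0.24, adjusted p = 3.35e-06). The forkhead gene foxc1 (Xetrov90016156) of paraxial mesoderm had 70.3 and 64.6 TPM against 2.49 and 0.93 TPM (log2 fold change 5.26, standard error 0.34, adjusted p = 6.82e-05). In the VMZ osr2 was at 102 and 80.0 TPM and foxc1 at 62.1 and 37.2 TPM, so that neither was confined to the dorsal sector. Of the other members, mesp2 (1.13 and 0.35 TPM against 0.1 and 0 TPM, adjusted p = 0.0543) and hes7.1 (20.1 and 72.0 TPM against 16.5 and 36.6 TPM, adjusted p = 0.756) had no call.

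Within the shared TFs, 5 were lower in the DMZ than in the VMZ, against 3.39% of all TFs and 0.432% of all genes. These were tbx2, msgn1, myc, cdx4 and LOC100495414. The posterior homeobox gene cdx4 had 37.3 and 23.9 TPM in the DMZ, 102 and 66.2 TPM in the LMZ and 131 and 97.8 TPM in the VMZ and 14.1 and 3.27 TPM in the AC (log2 fold change 1.92, standard error 0.35, adjusted p = 0.0198). Without DMZ replicate 1 or 2 its call against the AC was lost (adjusted p = 0.0901 and 0.111), as it was without the block (adjusted p = 0.321). The T-box repressor tbx2 had 4.86 and 3.41 TPM, 4.89 and 4.34 TPM, 14.3 and 14.1 TPM and 0.94 and 0.68 TPM in the same order, with a log2 fold change of -1.72 of dorsal over ventral (adjusted p = 0.000885). The proto-oncogene myc rose least of the 50, from 36.6 and 25.8 TPM in the AC to 67.1 and 39.2 TPM in the DMZ (log2 fold change 0.78). Its adjusted p was 0.0126, 0.264 without the block and 0.0745, 0.129 and 0.145 without AC replicate 1, AC replicate 2 and DMZ replicate 1. In all 5 the DMZ level lay above that of the AC and below that of the VMZ, which is the rule by which they were picked.

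The members of the Wnt and FGF lists differed less. The Wnt target sp5l (Xetrov90006342) had 1229.8 and 1017 TPM in the DMZ and 623 and 434 TPM in the AC (log2 fold change 1.13, standard error 0.11, adjusted p = 0.000305), and its lateral and ventral levels were 1544 and 1369 TPM and 1484 and 1441 TPM. The related gene sp5 was also called (3.05 and 1.34 TPM against 0.98 and 0.41 TPM, adjusted p = 0.0369), but the call was lost without each of the 4 libraries (adjusted p from 0.124 to 0.328, the latter without AC replicate 1). The TCF and LEF genes, which transduce the Wnt signal, had no call. Of these, tcf7l1 had 399 and 622 TPM in the DMZ and 326 and 448 TPM in the AC (log2 fold change 0.42, adjusted p = 0.604), and lef1 had a log2 fold change of 0.16 (adjusted p = 0.865). Of the FGF-responsive and immediate-early genes, egr1, fos and etv1 were higher. The level of egr1 was 4.14 and 2.83 TPM against 1.18 and 0.69 TPM (log2 fold change 1.93, standard error 0.23, adjusted p = 0.00086). That of fos was 13.1 and 14.2 TPM against 5.05 and 4.2 TPM (log2 fold change 1.62, standard error 0.25, adjusted p = 0.00375), and that of etv1 209 and 227 TPM against 172 and 151 TPM (log2 fold change 0.47, standard error 0.11, adjusted p = 0.0432). The AP-1 gene junb had a log2 fold change of -0.61 (adjusted p = 0.402). Without the block egr1, fos and etv1 did not pass (adjusted p = 0.0657, 0.0833 and 0.794). The call of etv1 was lost without AC replicate 1, AC replicate 2 or DMZ replicate 2 (adjusted p = 0.12, 0.402 and 0.396).

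The 19 TFs that could not be placed had a dorsal over ventral estimate above 0 in each case, with a median of 0.99, that did not pass the threshold. Of these, 4 kept their call against the AC with each library left out. The 19 included homeobox genes of eye and brain at low levels, with six6 at 1.62 and 1.38 TPM in the DMZ. Counts of arx were 58 in the DMZ and 2 in the AC, a ratio of 27.9 (95% exact interval from 7.39 to 236, adjusted p = 0.0114, and 0.102 without the block), and its adjusted p was between 0.056 and 0.0903 without AC replicate 1, AC replicate 2 or DMZ replicate 1. No read of fli1, an Ets gene of vessels and blood, was counted in either AC, and with 0.57 and 0.93 TPM in the DMZ it was at least 10.4-fold higher there (adjusted p = 0.013, 0.129 without the block and 0.0996 without AC replicate 1).

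Among the lists, that of the epidermis had the most TFs that were lower in the DMZ. Of 18 epidermal ectoderm TFs, 13 were lower, 2 were higher and 3 had no call, with a median log2 fold change of -2.95, and without the block 6 were lower and none higher. Among all TFs tested 4.15% were lower and 10.3% higher. The forkhead gene foxi1 (Xetrov90007506), an ectodermal regulator that in Xenopus also acts in ionocytes, had 141 and 90.2 TPM in the AC and 3.89 and 2.81 TPM in the DMZ (log2 fold change -5.05, standard error 0.47, adjusted p = 0.000906). It fell in steps from AC to ventral (14.8 and 24.3 TPM), lateral (7.81 and 16.1 TPM) and DMZ, and lateral and ventral levels were also below the AC, so that foxi1 counted as shared. Its relative foxi3.2 (Xetrov90000423) was the most abundant of the epidermal TFs in the AC, at 1014 and 1131 TPM against 138 and 128 TPM (log2 fold change -2.98, standard error 0.32, adjusted p = 0.00212). The homeobox gene dlx5 (Xetrov90030194), of the non-neural ectoderm, had 169 and 266 TPM in the AC, 56.7 and 124 TPM in the VMZ, 30.6 and 67.2 TPM in the LMZ and 9.80 and 15.5 TPM in the DMZ (log2 fold change -4.07, standard error 0.45, adjusted p = 0.00213, and 0.0647 without the block). The Kruppel-like gene klf17 (Xetrov90011845) had 622 and 744 TPM against 53.2 and 53.6 TPM (log2 fold change -3.63, standard error 0.16, adjusted p = 2.35e-06), the smallest adjusted p among the epidermal TFs. In both genes the DMZ was the lowest of the marginal zones in each clutch.

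Of the AP-2 and Grainyhead-like factors, which include regulators of epidermal differentiation, tfap2a, tfap2c, grhl1 and grhl3 were lower in the DMZ. In contrast, tfap2b and tfap2e were higher there, and grhl2 had no call. The level of tfap2a (Xetrov90016561) was 531 and 854 TPM in the AC, 322 and 551 TPM in the VMZ, 198 and 364 TPM in the LMZ and 59.4 and 87.5 TPM in the DMZ (log2 fold change -3.19, standard error 0.32, adjusted p = 0.00132, and 0.0595 without the block). Among these regions only the DMZ was called below the AC, since the lateral had an adjusted p of 0.0644 and the ventral one of 0.338. The level of grhl3 was 431 and 443 TPM in the AC and 76.9 and 46.8 TPM in the DMZ (log2 fold change -2.84, standard error 0.43, adjusted p = 0.0112), a call that was lost without each of the 4 libraries (adjusted p from 0.061 without AC replicate 1 to 0.122 without DMZ replicate 2). The same was true of klf5 (123 and 237 TPM against 16.3 and 24.4 TPM, adjusted p = 0.0232 with all libraries and from 0.141 to 0.191 with single ones left out). The level of grhl1 was 120.1 and 142 TPM against 21.5 and 13.3 TPM (log2 fold change -2.90, standard error 0.35, adjusted p = 0.00349). For tp63, the regulator of epidermal stem cells, it was 4.86 and 4.62 TPM in the AC and 1.37 and 0.52 TPM in the DMZ (log2 fold change -2.39, standard error 0.33, adjusted p = 0.00213, and 0.26 without the block), while the VMZ had 6.39 and 3.02 TPM. The epidermal TFs that were higher dorsally were gata3 (7.57 and 5.53 TPM against 0.83 and 1.54 TPM) and tfap2b (0.75 and 0.57 TPM against 0.09 and 0 TPM), and both had their highest level in the vegetal mass. Neither call was steady. That of gata3 (adjusted p = 0.014, and 0.111 without the block) was lost without AC replicate 1 or DMZ replicate 1 (adjusted p = 0.151 and 0.103). That of tfap2b (adjusted p = 0.0427, and 0.768 without the block) was lost without AC replicate 1, AC replicate 2 or DMZ replicate 2 (adjusted p = 0.337, 0.151 and 0.0544). Without a call were foxi2 (158 and 276 TPM against 135 and 147 TPM, adjusted p = 0.154), grhl2 and dlx6.

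**Figure D5:**
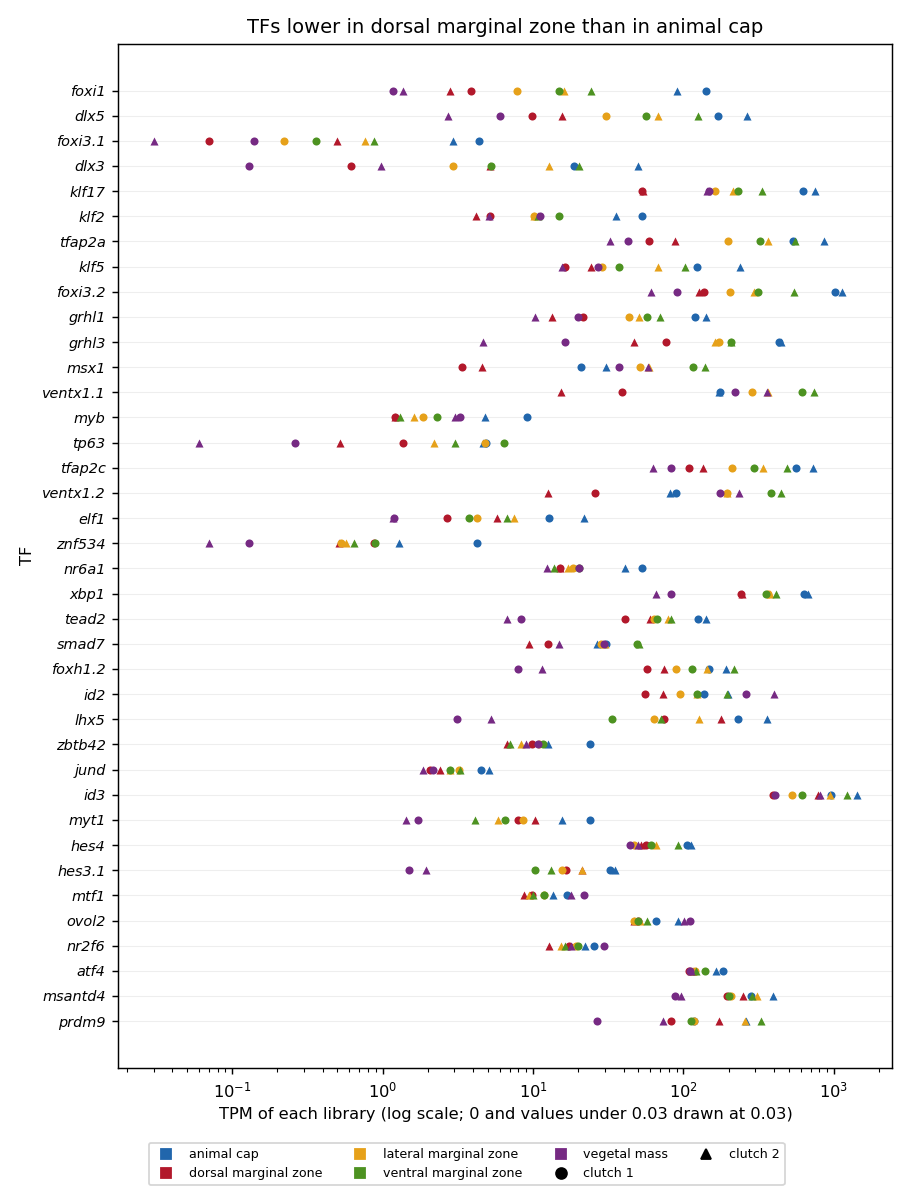
TPM of each of the 10 region libraries (log scale) for the 38 TFs lower in the dorsal marginal zone than in the animal cap, ordered from the largest fold change, with colors for regions and circles and triangles for clutches 1 and 2. The red dorsal points lie left of the blue animal cap points of the same clutch for each TF. For msx1, ventx1.1 and ventx1.2 the green points of the ventral marginal zone lie to the right of the animal cap, with msx1 at 116 and 138 TPM against 20.9 and 30.6 TPM.

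By the same rule with the signs turned, 15 of the 38 TFs that were lower in the DMZ were also lower there than in the VMZ. A further 10 were shared and 13 could not be placed. A level lower in the DMZ than in the VMZ was called for 3.39% of all TFs and 0.432% of all genes. Against the AC, 1.61% of all genes were lower in the VMZ and 1.25% in the LMZ. Of the 15, 8 were called below the AC in the DMZ alone among the marginal zones (tfap2a, msx1, ventx1.1, tp63, ventx1.2, smad7, foxh1.2 and prdm9). The other 7 were called in another marginal zone as well (dlx5, dlx3, klf17, klf2, tfap2c, id2 and id3). The vegetal mass was not tested against the AC. Of the 8, tfap2a, tp63, foxh1.2 and prdm9 were called lower still in the vegetal mass than in the DMZ, with foxh1.2 at 7.96 and 11.4 TPM there. Msx1, ventx1.1, ventx1.2 and smad7 were called higher in the vegetal mass. Among all TFs these directions were called for 16.9% and 25%. With each library left out in turn 4 of the 8, 7 of the 7, 7 of the 10 shared and 2 of the 13 others kept their call, and without the block 1, 2, 4 and 3 did. These class sizes depended on single libraries. Without DMZ replicate 2 the 8 became 3 and the 7 became 2, without DMZ replicate 1 they became 5 and 2, and without AC replicate 1 the 7 became 4. The 10 shared became 6 without AC replicate 1 or 2, and the 13 unplaced became 5 without AC replicate 1. Besides foxi1 the shared TFs were xbp1 of the unfolded protein response, tead2 of the Hippo pathway, the neural genes lhx5, myt1 and hes3.1, myb, elf1, nr6a1 and zbtb42. The level of xbp1 was 632 and 675 TPM in the AC, 242 and 246 TPM in the DMZ, 363 and 376 TPM in the LMZ and 356 and 412 TPM in the VMZ (log2 fold change -1.39, standard error 0.13, adjusted p = 0.000165). That of tead2 was 125 and 140.3 TPM, 40.8 and 60.3 TPM, 64.2 and 79.0 TPM and 66.5 and 82.3 TPM in the same order (log2 fold change -1.37, standard error 0.18, adjusted p = 0.00192, and 0.268 without the block). The forebrain gene lhx5 was the exception among the 10, being lower than in the AC (229.7 and 358 TPM against 74.3 and 178 TPM, log2 fold change -1.29, standard error 0.15, adjusted p = 0.000666, and 1 without the block) yet higher in the DMZ than in the VMZ, which had 33.7 and 71.4 TPM (log2 fold change 1.31, adjusted p = 0.00286).

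The BMP-responsive TFs msx1 and ventx1.2 were higher in the VMZ and lower in the DMZ than in the AC. Of 20 ventral and posterior TFs, 6 were lower in the DMZ than in the AC, 3 were higher and 11 had no call (median log2 fold change -0.41, and 1 higher and 1 lower without the block). Among all TFs tested 4.15% were lower and 10.3% higher, so that 3 of 20 higher is near that background. The homeobox repressor msx1 (Xetrov90000496) had 3.37 and 4.59 TPM in the DMZ, 20.9 and 30.6 TPM in the AC, 51.2 and 58.9 TPM in the LMZ and 116 and 138 TPM in the VMZ (log2 fold change -2.65, standard error 0.16, adjusted p = 1.4e-05, and 0.0533 without the block). The VMZ exceeded the AC (log2 fold change 2.29, standard error 0.14, adjusted p = 2.18e-05), as did the lateral (adjusted p = 0.00161), so that the AC stood between them and the DMZ. The ventralizing gene ventx1.1 (Xetrov90017641) had 39.3 and 15.3 TPM in the DMZ, 175 and 173 TPM in the AC and 614 and 733 TPM in the VMZ (log2 fold change -2.59, standard error 0.42, adjusted p = 0.0151). In the same order ventx1.2 had 25.9 and 12.5 TPM, 89.9 and 81.9 TPM and 382 and 446 TPM (log2 fold change -2.10, standard error 0.29, adjusted p = 0.00537). Against the AC the ventral excess of ventx1.2 was called (adjusted p = 0.00368) and that of ventx1.1 was not (adjusted p = 0.0501), and these copies may share reads. Their calls against the AC were lost without AC replicate 1 (adjusted p = 0.158 and 0.0532), that of ventx1.1 also without AC replicate 2 (adjusted p = 0.0861) and without the block (adjusted p = 0.0519).

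Of the inhibitors of BMP signaling or of helix-loop-helix factors, smad7, id2 and id3 were lower in the DMZ. No call was made for smad6 (log2 fold change -0.18, adjusted p = 0.864) or for id4 (log2 fold change 0.98, adjusted p = 0.346). The inhibitory Smad gene smad7 had 30.6 and 26.7 TPM in the AC and 12.6 and 9.47 TPM in the DMZ (log2 fold change -1.35, standard error 0.26, adjusted p = 0.0192), a call that was lost without each of the 4 libraries (adjusted p from 0.0888 to 0.176) and without the block (adjusted p = 0.128). The level of id2 was 136 and 198 TPM against 55.6 and 73.3 TPM (log2 fold change -1.33, standard error 0.10, adjusted p = 4.77e-05). That of id3, the most abundant of them, was 952 and 1430.4 TPM against 392 and 783 TPM (log2 fold change -1.05, standard error 0.11, adjusted p = 0.000482). Without the block neither id gene passed, with adjusted p of 0.641 and 1. Both were higher in clutch 2 in both regions. Of the TFs without a call, ventx2.1 had 419.8 and 345 TPM in the AC and 234 and 189 TPM in the DMZ (log2 fold change -0.82, adjusted p = 0.137) and ventx2.2 289 and 248 TPM against 210.5 and 149 TPM (log2 fold change -0.55, adjusted p = 0.153). The homeobox gene evx1 of ventral mesoderm was low in both regions, at 0.78 and 0.48 TPM in the DMZ and 0.74 and 0.76 TPM in the AC. Against the VMZ 15 of the 20 were lower in the DMZ, where 3.39% of all TFs and 0.432% of all genes tested were.

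TFs of neural competence went both ways, with 7 of 18 higher in the DMZ, 1 lower and 10 without a call (median log2 fold change 0.49, and 4 higher and none lower without the block). Among all TFs tested 10.3% were higher and 4.15% lower. The 7 higher ones of the list included sox2, zic2, foxd3, foxb1 and, both of them shared, zic5 and irx3, and the lower one was lhx5. The homeobox gene irx3 had 76.3 and 38.4 TPM in the DMZ and 4.29 and 3.78 TPM in the AC (log2 fold change 3.83, standard error 0.45, adjusted p = 0.0028). In contrast, irx2 had 45.5 and 93.0 TPM in the DMZ and 101.5 and 142 TPM in the AC, with an adjusted p of 0.0503 that missed the threshold, and irx1 59.1 and 93.5 TPM against 59.9 and 83.05 TPM (adjusted p = 0.948). The abundant genes of early pluripotency and neural fate differed in this. While sox2 was called higher and lhx5 lower, zic1 had no call at a log2 fold change of 0.67. Smaller estimates without a call were those of sox3, pou5f3.2 and pou5f3.3. The gene sox3 had 760.1 and 1152 TPM in the DMZ and 938 and 1284 TPM in the AC (log2 fold change -0.19, standard error 0.29). Likewise pou5f3.2 had 1995 and 2712 TPM against 1927 and 2661 TPM (log2 fold change 0.07, standard error 0.12) and pou5f3.3 a log2 fold change of 0.31 (standard error 0.13). Against the VMZ 10 of the 18 were higher in the DMZ, where 4.15% of all TFs and 1.02% of all genes tested were.

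Of 7 TFs that transduce Nodal and BMP signals 1 was lower, none higher and 6 had no call (4.15% lower and 10.3% higher among all TFs tested). The log2 fold changes of those 6 were from -0.64 for foxh1 to -0.09 for smad2. The call was that of foxh1.2, a forkhead gene related to the Nodal mediator foxh1, with 147 and 192 TPM in the AC, 57.3 and 74.6 TPM in the DMZ, 88.6 and 143 TPM in the LMZ and 114 and 216 TPM in the VMZ (log2 fold change -1.33, standard error 0.15, adjusted p = 0.000659, and 0.837 without the block). Among the broadly expressed TFs hmgb2, hmgb3, ybx1, ctcf, yy1 and sp1 none had a call, and their log2 fold changes were between -0.31 and 0.00. The level of hmgb2 was 4729 and 5488 TPM in the AC and 4802 and 4667 TPM in the DMZ.

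Outside the study's TF list, the largest rises were those of 2 gene models to which the tables used here give no name. Xetrov90024708 was counted 171 and 279 times in the DMZ and not at all in the AC, at 21.7 and 64.9 TPM, and was at least 80.4-fold higher there (adjusted p = 0.00225, and 0.0513 without the block). Its lateral level was 1.11 and 0.65 TPM, and the DMZ also exceeded the ventral (adjusted p = 0.0113). Xetrov90029806, absent from the counts of both AC libraries as well, was at least 29.0-fold higher at 7.59 and 21.8 TPM, with its highest level in the vegetal mass (134 and 169.8 TPM). Among the gene models that were lower, Xetrov90008197 fell from 39.3 and 73.5 TPM in the AC to 0.97 and 1.31 TPM (log2 fold change -5.53, standard error 0.49, adjusted p = 0.000593, and 0.0897 without the block), with 60.8 and 239.5 TPM in the VMZ. Xetrov90005219 had 0.49 and 3.05 TPM in the AC and 0 and 0.24 TPM in the DMZ (log2 fold change -4.05, standard error 0.60, adjusted p = 0.0032, and 1 without the block).

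Transcripts of the shared TFs were also found in the AC, mostly at a small share of the dorsal level that differed between clutches. Some of these TFs were abundant in the AC itself, such as sp5l at a mean of 528.8 TPM. For the 34 shared TFs with at least 10 TPM in both DMZ libraries, the AC held a median of 5.74% of the dorsal level in clutch 1 (range 1.18% to 62.6%) and 2.66% in clutch 2 (range 0% to 65.9%), and the share was higher in clutch 1 for 30 of the 34. The marginal zone markers t, eomes, myf5 and msgn1 summed to 60.7 TPM in the AC of clutch 1 and 23.3 TPM in that of clutch 2, against 1277 and 1230.0 TPM in the DMZ. Msgn1 was at 0 in 1 of these AC libraries. The part of these transcripts in the size of the fold changes was not tested.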

How the data were processed

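RNA was sequenced from animal cap, dorsal, lateral and ventral marginal zone, vegetal mass and whole embryos of 2 clutches (12 libraries, polyA-selected, 50-bp single-end, not stranded). Per the labels and the study's methods, the authors aligned the reads to the v9.0 gene models and estimated them with RSEM (version 1.2.12 in the submitters' processing notes), and deposited expected counts and TPM for each gene model. Reads of near-identical copies are divided by estimate, and without strand, overlapping genes cannot be told apart. The authors' own test was not used here.

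After rounding to whole numbers, the expected counts were tested with edgeR 4.0.16 (quasi-likelihood test, robust, TMM, filterByExpr) in R 4.3.3 on the 10 region libraries, with region and clutch as terms and Benjamini-Hochberg adjustment over 15727 genes at 0.05. A standard error is the size of the log2 fold change divided by the square root of the test's F statistic, and is approximate. Library totals were 14634582 to 29166548 expected counts. Same-numbered libraries share a clutch, and their deviations from the region means were correlated in all 10 pairs of regions (r from 0.66 to 0.83, 0.72 for dorsal marginal zone and animal cap), so the clutch was kept as a block. With this block, p-values rest on the variation left after region and clutch are fitted. That variation has 4 residual degrees of freedom over the 10 region libraries. A shift common to all regions of a clutch is taken out of it, and only 2 clutches were sampled. Whole embryos entered no test. Deposited TPM served for levels and per-clutch directions. Of 1240 TFs in the study's list of TFs with expression values, 1197 had a gene model, and 1138 of these had a name. Tests were tried on simulated data. Intervals of count ratios are exact (Clopper-Pearson) and, like the floor of 3 counts per library, cover counting error only.

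The members and gene lists were chosen with earlier results of these data known. Named were the lists' members, the 10 TFs with the largest fold change per direction, the 10 with the largest in the dorsal side and the shared class, and at most 2 other gene models per direction. TFs named outside this rule, such as arx, nkx2-3, gli1.1, xbp1 and myc, were picked after their values were seen. Alternatives were no block, DESeq2 1.42.0, library size without TMM, no filter, the 4 libraries alone, limma 3.58.1 on log2 TPM with a pseudocount of 1 or 0.1, and each of the 4 libraries left out. Some TFs are counted but not reported by name here. No sequences are shown and no genome positions were used here.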

Additional observations from a re-analysis of the deposited data

Results flagged for a closer look

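For 11 TFs of the lists the TPM ratio of DMZ to AC had opposite signs in the clutches, a difference between clutches that was not tested. Of 2 libraries per region none can be said to stand apart. The widest splits were those of ventral and organizer genes at low levels. The log2 TPM ratio was 0.12 in clutch 1 and -3.13 in clutch 2 for ventx3.2, -1.50 and 0.12 for hesx1 and -0.76 and 0.82 for msx2. The blood and ventral gene gata2 had -0.13 and 0.83, from 112.7 and 76.0 TPM in the AC and 103 and 135 TPM in the DMZ. Ratios of evx1 were 0.08 and -0.66, those of smad3 0.04 and -0.48 and those of pou5f3.1 0.02 and -0.40. For irx1 they were -0.02 and 0.17, for hmgb2 0.02 and -0.23, for hmgb3 -0.15 and 0.06 and for ctcf 0.01 and -0.16. None of the 11 had a call between DMZ and AC, and a call on these same libraries is unlikely where the clutches disagree.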

How the results depend on the processing

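No direction reversed among the counts and named genes under the alternatives, and none of the 132 TFs was called with the opposite sign in any of the 11 fits, of which 36 TFs were called in all. Without the block, 213 genes were called (192 higher and 21 lower in the dorsal marginal zone) and 59 TFs (49 and 10, all 59 with a 2-fold ratio), with 2 dorsal alone, 1 dorsal-graded and 27 shared among the higher and 1, 0 and 0 among the lower. With the block, clutch differences leave the replicate error, as the fit is built, and the part of this in the changed calls was not tested. DESeq2 with the block called 152 TFs, 129 of them among the 132, and counted 22 higher and 13 lower TFs as dorsal-graded. With the library size in place of TMM 129 of the 132 were kept, without a filter 117, with limma 119 and 118 (pseudocounts 1 and 0.1). The pseudocount of 0.1 left 9 TFs as dorsal alone and 6 lower TFs as shared. The 4 libraries alone, with 1 residual degree of freedom, gave 399 lower genes and kept 105 of the 132 TFs, and the classes were not run on them. A ratio of at least 4 left 18 TFs lower. Requiring an excess over the lateral marginal zone as well gave 6 dorsal alone, 5 dorsal-graded and 31 unplaced TFs among the higher and 3, 2 and 20 among the lower, and requiring a 2-fold ratio left 11 and 8 unplaced. With 1 library of either region left out, its lone sample being assumed to vary like the other groups, 517 to 586 genes were called (125 to 151 lower, 366 to 461 higher) and 94 to 114 TFs (21 to 27 lower, 69 to 89 higher), with 20 to 26 TFs lower and 66 to 75 higher at a 2-fold ratio. Then 7 to 17 TFs were dorsal alone, 7 to 15 dorsal-graded, 31 to 45 shared and 14 to 18 unplaced among the higher, and 3 to 6, 2 to 5, 6 to 11 and 5 to 10 among the lower. The cause of these changes was not tested. At the low counts of sia2 the fits differed (adjusted p = 0.248 with edgeR and 0.0378 with limma and a pseudocount of 1).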

Other observations

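DMZ and VMZ also differed in TFs for which DMZ and AC had no call. Of 38 TFs that were higher in the dorsal than in the VMZ (4.15% of TFs, and 1.02% of all genes), 25 were also higher than in the AC, 1 (lhx5) was lower and 12 had no call. The 12 included neural plate genes. For irx1 the AC level was near the dorsal one (log2 fold change 0.12), while zic1 was higher dorsally in its estimate (log2 fold change 0.67). The zinc-finger gene zic1 had 282 and 317 TPM in the AC, 341 and 620.2 TPM in the dorsal and 94.9 and 89.97 TPM in the VMZ (dorsal over ventral log2 fold change 2.39, standard error 0.23, adjusted p = 0.00259). The homeobox gene irx1 had 59.9 and 83.05 TPM, 59.1 and 93.5 TPM and 12.2 and 8.14 TPM in the same order (dorsal over ventral log2 fold change 2.91, standard error 0.29, adjusted p = 0.00286). Prdm14, a regulator of germ cells in the mouse, was highest in the AC, with 37.1 and 63.1 TPM, 13.8 and 40.1 TPM and 2.03 and 2.80 TPM (dorsal over ventral log2 fold change 3.40, standard error 0.35, adjusted p = 0.00298), and its ventral level was below that of the AC (adjusted p = 0.000263). The ciliogenesis gene foxj1 had 35.7 and 6.29 TPM, 59.2 and 34.7 TPM and 13.5 and 3.87 TPM (dorsal over ventral log2 fold change 2.76, standard error 0.39, adjusted p = 0.0188), so that its AC level differed widely between clutches. For these 4 genes the VMZ was the lowest of the 3 regions in both clutches. The other 8 were hesx1, hes3-like, irx2, zic4, tcf7l1, prdm1, rarg and pbx2.

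Of 31 TFs that were lower in the dorsal than in the VMZ (3.39% of TFs, and 0.432% of all genes), 15 were lower than in the AC, 5 were higher and 11 had no call. Among the 11 were posterior and ventral genes that were low in both the AC and the DMZ, such as evx1, with 29.1 and 34.6 TPM in the VMZ against 0.78 and 0.48 TPM in the dorsal and 0.74 and 0.76 TPM in the AC (dorsal over ventral log2 fold change -5.47, standard error 0.31, adjusted p = 0.000112). The posterior gene cdx1 had 74.6 and 70.7 TPM, 12.7 and 4.72 TPM and 9.19 and 2.63 TPM in the same order (dorsal over ventral log2 fold change -3.06, standard error 0.50, adjusted p = 0.0435), and the T-box repressor tbx3 had 6.38 and 6.04 TPM, 0.45 and 0.16 TPM and 0.58 and 0.61 TPM (dorsal over ventral log2 fold change -4.23, standard error 0.33, adjusted p = 0.00058). The Notch pathway gene hes6.1 stood at 206 and 226 TPM, 84.5 and 101.2 TPM and 63.3 and 71.6 TPM (dorsal over ventral log2 fold change -1.16, standard error 0.13, adjusted p = 0.00249). The adjusted p-values (Benjamini-Hochberg) are from the edgeR quasi-likelihood test used above, and these TFs were picked after their values were seen.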
